A study of Mus musculus with 160 samples.

Results

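Myc, Mycn, Max, Mxd1, Mxd3 and Mxd4, 6 of the 23420 genes in the expression table, were followed in single cells on the way from endothelium to blood. They were chosen by name, as the genes of the Myc, Max and Mxd family of DNA-binding partners for which the table was to be asked whether Myc and Mycn share cells or exclude each other. All 6 were in the table. The 160 cells came from mouse stem cell cultures (strain C57BL/6) and fell into 4 groups by their labels: 65 induced hemogenic endothelial cells (iHECs) and 21, 18 and 56 induced hematopoietic progenitor cells (iHPCs) of induction days 14, 17 and 21. The labels count these days also as days 3, 6 and 10 of maturation. According to the study's methods, the stem cells carried a doxycycline-inducible Runx1-p2a-Hoxa9 cassette at the Rosa26 locus, and doxycycline was given to all groups, so no group lacked the transgene or its inducer. The iHPCs had grown on OP9-DL1 feeder cells, a stromal line that presents a Notch ligand. The labels write ESC/iPSC without naming the line of a cell.

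The sort differed between groups. By the methods, iHECs were taken as CD31+ CD41low CD45- c-kit+ CD201high cells, day-14 and day-17 iHPCs as CD45+ Lin- cells, and day-21 iHPCs as Ter119- CD45+ c-kit+ CD127+ cells. Day, sort and feeder contact therefore cannot be told apart in any comparison between groups. The labels name no culture or experiment, so each group counts as 1 sample. The cells of a group are not replicates, and no p-value is given for any difference.

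Expression was given as TPM, a transcript abundance scaled for transcript length and for the total of each cell. Detected means above 1 TPM. Values of the iHPC groups are given in the order of days 14, 17 and 21. Levels are means of log2(TPM + 1) with the SD between cells, and intervals of shares are exact 95% Clopper-Pearson intervals that cover counting error only. The median number of detected genes per cell was 4926 in iHECs and 8200, 8101 and 6695.5 in the iHPC groups, so a gene of equal level could be found more easily in iHPCs. Single-cell values of 0 can be failed estimates. Tbp, which every cell uses, was listed at 0 in 28 of the 160 cells, whereas Actb and Gapdh were listed at 0 in no cell.

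The marker genes went with the labels. All 6 endothelial markers were lower and all 6 blood cell markers higher in day-14 iHPCs than in iHECs by at least 2-fold. Cdh5, which encodes VE-cadherin, was listed at 0 in all iHPCs of all days. Of 7 markers of stromal cells, Col3a1 and Lum were at 0 in all iHPCs. In each iHPC group 4 of the 7 were at 0 in every cell, but not the same 4 in each. The summed level of the 7 reached at most 14.5 TPM in any iHEC and 14.4, 48.5 and 32.03 TPM in any cell of the iHPC groups. Among the iHECs, 6 had at least 4 of the 6 blood cell markers, and 2 iHPCs had at most 4 of them. Without these 8 cells no recomputed value moved by the rules given under the dependence on processing, and the 2 calls that fell short are named with Mycn below.

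Myc and Mycn encode transcription factors that bind DNA only as heterodimers with the small partner Max. These dimers recognize the E-box CACGTG and raise genes of ribosome production, nucleotide synthesis and the cell cycle. Max also pairs with the Mxd proteins, which bind the same motif and recruit Sin3 corepressors, so that activators and repressors compete for a common partner. Myc and Mycn are both known to act in blood stem cells, where either can in part stand in for the other.

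In the GRCm38 annotation, Myc lies on the plus strand of chromosome 15, from 61985391 to 61990374. Mycn lies on chromosome 12, from 12936093 to 12941914, and Max on chromosome 12, from 76937269 to 76962201. Mxd1 lies on chromosome 6, from 86647042 to 86669161, Mxd3 on chromosome 13, from 55325168 to 55329823, and Mxd4 on chromosome 5, from 34173883 to 34187720. These 5 genes are on the minus strand.

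Myc and Mycn are related in sequence, so it was asked how easily reads could be counted for the wrong gene. The longest run of bases shared by a Myc and a Mycn transcript was 12 bases, and over the 15 pairs of members it was 11 to 17 bases. The longest run that Mycn shares with the retrogene Mycs, 34 bases, is printed with the most similar stretch of Myc because it falls in the coding part of the conserved Myc box and shows how single bases tell the pair apart. Capitals mark the 4 bases at which Mycn and Myc differ. The Mycn stretch is at chr12:12940029-12940062, minus strand, and the Myc stretch at chr15:61987907-61987940, plus strand, both within exon 2 of 3.
Mycn: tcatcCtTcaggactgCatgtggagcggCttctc
Myc: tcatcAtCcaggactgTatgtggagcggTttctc
Mycs was listed at 0 in all 160 cells.

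The 2 activators were found in most cells of every group. Myc was detected in 48 of 65 iHECs (73.8%, interval 61.5 to 84.0%). Among iHPCs it was found in all 21 cells of day 14, in 17 of 18 at day 17 and in 48 of 56 at day 21 (85.7%, interval 73.8 to 93.6%). The lowest, median and highest Myc values were 0, 43.9 and 617 TPM in iHECs and 26.4, 307 and 708 TPM in day-14 iHPCs. They were 0.84, 180 and 820 TPM in day-17 iHPCs and 0, 100.2 and 903 TPM in day-21 iHPCs. Cells at the top of each group were alike in level, whereas cells at or near 0 were frequent in iHECs and absent at day 14. The mean Myc level was 4.51 ± 3.30 in iHECs (SD between cells, n = 65), and the iHPC groups had 8.03 ± 1.22 (n = 21), 6.82 ± 2.57 (n = 18) and 5.82 ± 2.67 (n = 56). The difference of iHECs and day-14 iHPCs exceeded the SD of both groups, and the later neighbors differed by less than the SD of either.

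Mycn was detected in 58 of 65 iHECs (89.2%, interval 79.1 to 95.6%). It was found in 19 of 21 and 18 of 18 cells at the earlier iHPC days and in 44 of 56 cells at day 21 (78.6%, interval 65.6 to 88.4%). Its lowest, median and highest values were 0, 109 and 929 TPM in iHECs and 0, 116 and 419 TPM in day-14 iHPCs. They were 1.93, 132 and 368 TPM in day-17 iHPCs and 0, 44.2 and 231 TPM in day-21 iHPCs. The highest Mycn value was thus in an iHEC, and the day-21 iHPCs had the lowest median and the lowest maximum of the 4 groups. The mean Mycn level was 5.77 ± 2.88 in iHECs and 5.69 ± 2.81, 6.43 ± 1.95 and 4.65 ± 2.70 in the iHPC groups, with neighbors closer than the SD of either group.

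Max, the obligate partner, was the member with the largest gap in detection. It was found in 27 of 65 iHECs (41.5%, interval 29.4 to 54.4%) whereas 21 of 21, 17 of 18 and 41 of 56 iHPCs held it. Max was listed at 0 in 30 iHECs, and the lowest, median and highest iHEC values were 0, 0.23 and 189 TPM. The day-14 iHPCs held 5.43, 37.3 and 95.9 TPM, the day-17 iHPCs 0.48, 42.7 and 120 TPM, and the day-21 iHPCs 0, 21.9 and 163 TPM. iHECs were therefore split between cells at or near 0 and cells that held more Max than most iHPCs: the 27 iHECs with Max had a median of 73.7 TPM, against 37.3 TPM over the day-14 iHPCs. The mean level of Max was 2.42 ± 3.01 in iHECs and 5.12 ± 0.98, 5.34 ± 1.35 and 3.29 ± 2.38 in the iHPC groups. Detection of Max did not go with the number of genes per iHEC, since iHECs with and without Max had medians of 4974 and 4862 detected genes. At day 21 it did, with medians of 6958 detected genes in cells with Max and 5527 in those without it.

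The Mxd repressors were lower and patchier than the activators. Mxd1, which is known from differentiating blood cells, was detected in 25 of 65 iHECs, against 13 of 21, 11 of 18 and 18 of 56 cells of the iHPC groups. Its median was 0.025 TPM in iHECs and 1.64, 5.60 and 0 TPM in iHPCs, with a highest value of 407 TPM in an iHEC and of 45.5 TPM at day 21. The mean Mxd1 level was 1.75 ± 2.47 in iHECs and 1.88 ± 1.71, 2.27 ± 2.03 and 1.14 ± 1.70 in iHPCs, and no neighboring groups differed by more than the SD of either.

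Mxd3, a member reported in proliferating cells, was nearly absent from iHECs and was found in a larger share of cells in each later group. It was detected in 1 of 65 iHECs, which is 1.54% (interval 0.039 to 8.28%). In iHPCs the counts were 2 of 21 (9.52%, interval 1.17 to 30.4%), 5 of 18 (27.8%, interval 9.69 to 53.5%) and 20 of 56 (35.7%, interval 23.4 to 49.6%). The single iHEC with Mxd3 held 36.6 TPM, and the highest values of the iHPC groups were 11.96, 42.4 and 125 TPM. The iHEC interval overlapped that of day 14 and neither that of day 17 nor that of day 21. The intervals of the 3 iHPC groups overlapped each other. These intervals cover counting error only, and each group is 1 sample. iHECs also had fewer detected genes, and the share of all genes with such a gap was not computed. The mean Mxd3 level was 0.084 ± 0.65 in iHECs and 0.32 ± 1.02, 1.07 ± 1.93 and 1.87 ± 2.66 in iHPCs. The first 105 bases of the annotated Mxd3 interval, from 55325168 to 55325272, overlap Prelid1 on the opposite strand, and the kit is not stated to keep strand. The median of Prelid1 was 802 TPM in day-21 cells with Mxd3 and 685 TPM in those without. At day 17 it was 639 TPM in the 5 cells with Mxd3 and 809 TPM in the rest. At day 14 it was 723 TPM in the 2 cells with Mxd3 and 694 TPM in the rest. In iHECs the single cell with Mxd3 had 689.9 TPM, and the rest had a median of 709 TPM. Whether reads of Prelid1 were counted for Mxd3 was not tested.

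Mxd4 was detected in 13 of 65 iHECs, against 4 of 21, 7 of 18 and 18 of 56 cells of the iHPC groups. In iHECs the 13 cells with Mxd4 had a median of 63.5 TPM and reached 273 TPM, whereas the 4 day-14 cells had a median of 6.05 TPM and none passed 10 TPM. The mean Mxd4 level was 1.18 ± 2.44 in iHECs and 0.51 ± 1.11, 1.83 ± 2.27 and 1.48 ± 2.36 in iHPCs, and neighbors differed by less than the larger of their SDs. Mxd4 overlaps the antisense gene Gm42846 over 1001 bases, so reads of the pair cannot be told apart there without strand. Max overlaps Gm47218 over 1319 bases and Mxd1 overlaps Gm44292 over 2364 bases. Both overlaps are on the same strand, where strand would not separate the reads. Gm42846, Gm47218 and Gm44292 had no row in the expression table.

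**Figure D1:**
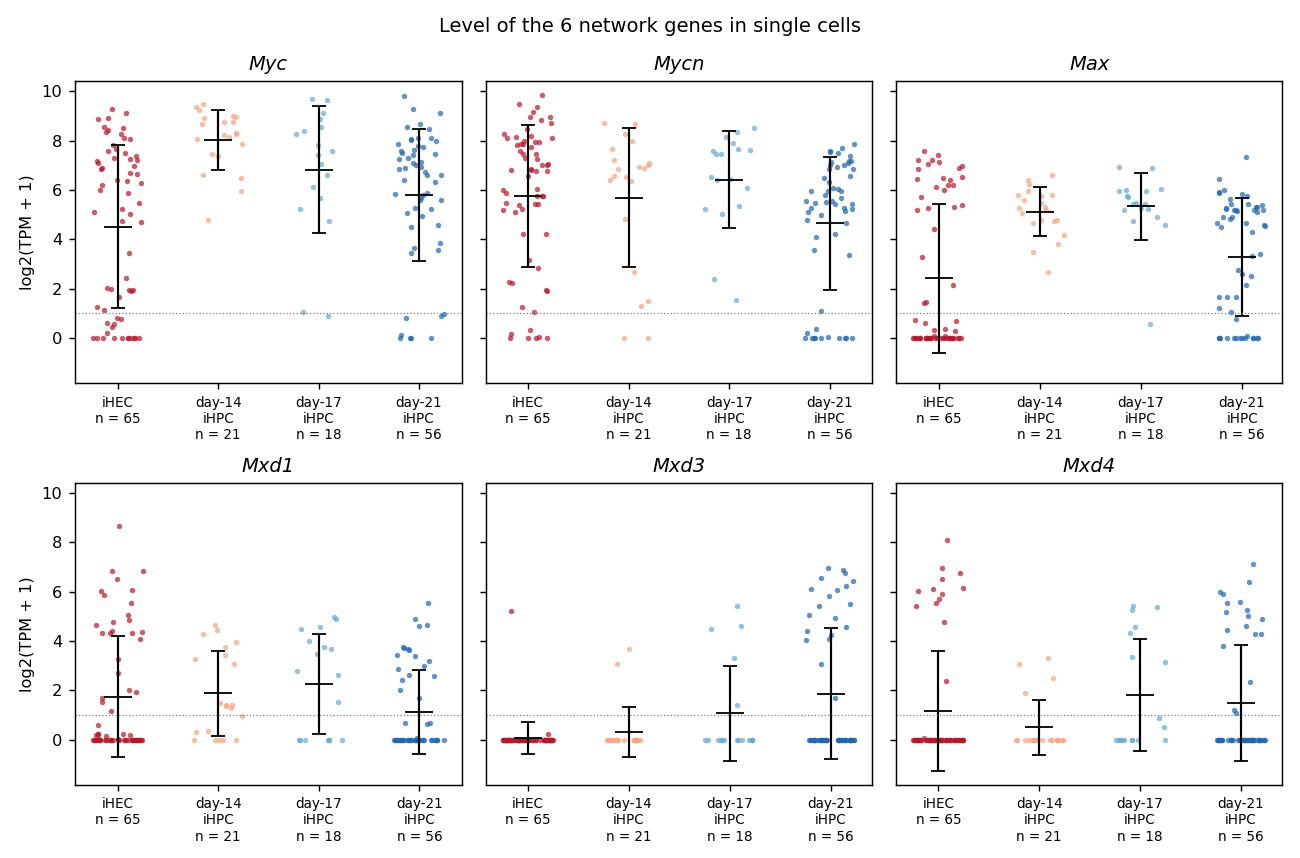
Level of each of the 6 genes, as log2(TPM + 1), in every cell of the 4 groups (points), with the mean and the SD between cells (bars) and the detection threshold of 1 TPM (dotted line). Myc and Max have no cell below the line at day 14, Max has 27 of 65 iHECs above it, and Mxd3 goes from 1 iHEC to 20 day-21 iHPCs above it.

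TPM is scaled for length, so the levels of the members can also be ordered within a group. In iHECs the order of mean log2(TPM + 1) was Mycn, Myc, Max, Mxd1, Mxd4 and Mxd3, and in all 3 iHPC groups Myc led, followed by Mycn and then Max. The step from Max to the first Mxd gene exceeded the SD of both genes at day 14 and day 17. All other neighbors in these orders, Myc and Mycn included, were closer than the larger of their SDs. Mxd3 was the lowest member up to day 17 and the highest of the 3 Mxd genes at day 21, where the Mxd genes differed by less than their SDs.

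Between groups, the difference of the means was read relative to the median difference over 9674 genes. These were the genes above 1 TPM in over 30 of the 160 cells. TPM has a fixed total per cell and the groups differed in detected genes, so many genes could shift together. The median difference was 0.93 for the step from iHECs to day 14, 0.28 for the next step and -0.74 for the last. With pseudocounts of 0.1 and 10 it was 1.83 and 0.21 for the step from iHECs to day 14. A gene of nearly equal means could therefore be counted as lower in that step and as higher in the last. A gene was counted as higher or lower when the relative difference was at least 1, which is 2-fold, in either direction. This is a rule of size and not a test. Of the members 5 passed the filter on low values, and Mxd3, above 1 TPM in too few cells, did not.

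From iHECs to day-14 iHPCs, 27.3% of all genes passed the rule upward and 24.4% downward. Of the 5 members, Myc and Max were higher and Mycn and Mxd4 lower. Myc differed by 3.52, or 2.59 relative to the median, and Max by 2.70, or 1.77 relative to the median (0.81 with a pseudocount of 10). The Mycn means differed by -0.08, which is a relative value of -1.005 and lies on the limit. Mxd4 had a relative value of -1.59 (-0.65 with a pseudocount of 10 and -0.89 without the filter) and Mxd1 one of -0.80. The Mxd4 means differed by -0.66. Without the 8 cells of unusual blood cell markers, Mycn had a relative value of -0.83 and was no longer counted.

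From day 14 to day 17, the rule held for 9.03% of all genes upward and 7.09% downward. Myc was lower, with a relative value of -1.49 (-0.74 without the 42 cells that had the fewest detected genes for their group), and Mxd4 higher, with 1.04 (0.39 with a pseudocount of 10, 0.93 with median-of-ratios size factors and 0.92 without those 42 cells). Mycn (0.46), Max (-0.06) and Mxd1 (0.11) stayed within the limit. From day 17 to day 21, 10.3% of all genes passed upward and 13.1% downward. Max (-1.31) and Mycn (-1.04) were lower, and Myc (-0.27), Mxd1 (-0.39) and Mxd4 (0.39) stayed within the limit. Mycn was at -0.94 without the 8 cells and at -0.42 without those 42 cells, and with a pseudocount of 10 Mycn was at -0.87 and Max at -0.80. Mxd1 was at -1.38, and so past the limit, without those 42 cells.

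The question of exclusion was then taken to single cells. Both Myc and Mycn were detected in 44 of 65 iHECs, against 19 of 21, 17 of 18 and 41 of 56 cells of the iHPC groups. These are 67.7% (interval 54.9 to 78.8%), 90.5% (69.6 to 98.8%), 94.4% (72.7 to 99.9%) and 73.2% (59.7 to 84.2%) of the cells. The shares of Myc and of Mycn, multiplied, give 42.8, 19, 17 and 37.7 cells with both. At day 14 and day 17 the counts could not differ from these, since Myc was in all cells of day 14 and Mycn in all cells of day 17, so exclusion could not show there. In iHECs and at day 21 the counts found were above the products.

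Cells with only 1 of the pair differed in kind between groups. Among iHECs 14 cells had Mycn only, 4 had Myc only and 3 had neither. Among day-21 iHPCs 7 had Myc only, 3 had Mycn only and 5 had neither. The 2 exceptions at day 14 lacked Mycn, and the 1 at day 17 lacked Myc, at 0.84 TPM just under the threshold. In iHECs with Mycn only the median Mycn value was 84.3 TPM, against 131 TPM in iHECs with both.

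Joint detection went with the number of detected genes. Of the 28 day-21 iHPCs with fewer genes 15 had both and 5 had neither, and of the 28 with more genes 26 had both and 0 had neither. In iHECs the same split gave 19 of 33 and 25 of 32 cells. The day-21 iHPCs with neither gene had a median of 4104 detected genes, against 6993 in those with both. Among the 28 day-21 iHPCs with fewer genes, the product of the shares gave 12.8 cells with both and 2.75 with neither, below the 15 and 5 found. Among the 28 with more genes it gave 26.04 cells with both, and in the iHEC classes 18.7 and 24.4, close to the counts found. The part of the number of detected genes in these counts was not tested.

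**Figure D2:**
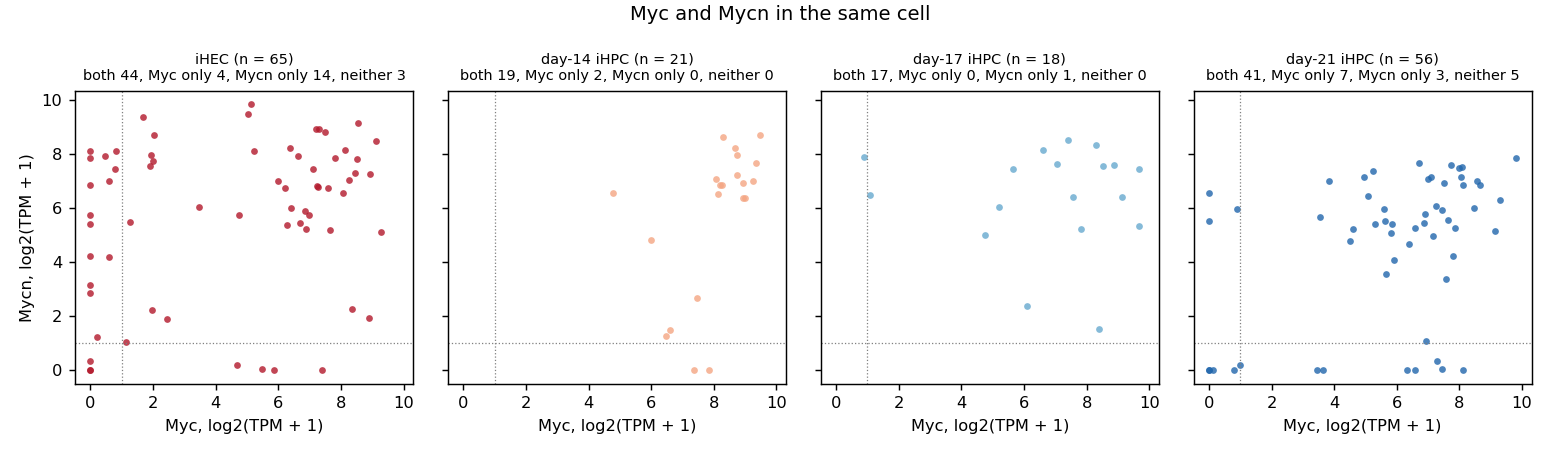
Myc (horizontal axis) against Mycn (vertical axis), both as log2(TPM + 1), in each cell of the 4 groups, with dotted lines at 1 TPM and the numbers of cells in each quadrant above each panel. Most cells lie to the upper right, with both genes detected. The iHEC panel has 14 cells at the left edge with Mycn only, and the day-21 panel has 7 cells at the lower edge with Myc only.

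As a description across cells, which share cultures and differ in detected genes, the Pearson correlation of Myc with Mycn was 0.24 over 65 iHECs and 0.51, -0.05 and 0.41 over the 21, 18 and 56 iHPCs. At day 21 Myc correlated with the number of detected genes at 0.42 and Mycn at 0.63.

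The balance of the pair within a cell does not depend on how the cell was scaled. Over the 62 iHECs with either gene, Mycn made up a median of 63.8% of the summed Myc and Mycn TPM (quartiles 34.1 and 98.6%). In the iHPC groups the median was 24.7% (13.8 to 33.5%, 21 cells), 42.4% (14.8 to 67.5%, 18 cells) and 29.7% (14.8 to 52.1%, 51 cells). Myc was the higher gene in 25 of 62 iHECs (40.3%, interval 28.1 to 53.6%). It was the higher gene in 19 of 21 cells at day 14 (90.5%, interval 69.6 to 98.8%), 9 of 18 at day 17 and 36 of 51 at day 21 (70.6%, interval 56.2 to 82.5%). The iHEC interval overlapped neither that of day 14 nor that of day 21, and the interval of day 17 was wide. These intervals cover counting error only, and the cells of a group are not replicates. The share of other gene pairs with such a gap was not computed.

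The shares also differed in shape. In 21 of 62 iHECs Mycn made up at least 90% of the sum, against 0 of 21, 2 of 18 and 4 of 51 cells in the later groups. In 34 iHECs and 16, 13 and 36 iHPCs the share lay between 10 and 90%. Over all cells, the sum itself had a median of 218 TPM in iHECs, 424 and 336 TPM at day 14 and day 17, and 157 TPM at day 21. The day-21 cells thus had the lowest sum, with a Mycn share close to that of day 14.

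**Figure D3:**
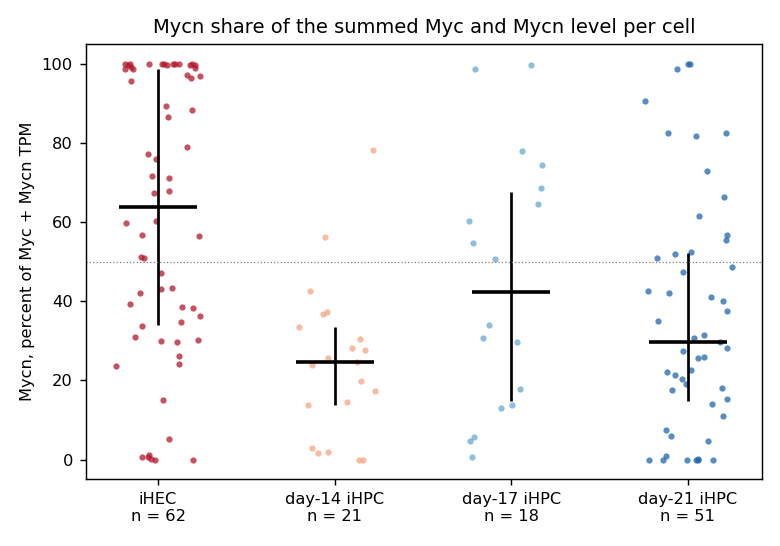
Mycn as percent of the summed Myc and Mycn TPM in each cell in which either gene was above 1 TPM (points), with the median (horizontal bar) and quartiles (vertical bar) of each group and a dotted line at equal levels. The iHEC median of 63.8% is above the line, and the medians of the 3 iHPC groups, 24.7, 42.4 and 29.7%, are below it.

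Myc or Mycn was detected without Max in many iHECs. All of Myc, Mycn and Max were found in 19 of 65 iHECs, against 19 of 21, 16 of 18 and 33 of 56 cells of the iHPC groups. Of the 44 iHECs with both Myc and Mycn, 19 had Max, and of the 14 with Mycn only, 5 had it. Max exceeded the sum of Myc and Mycn in 8 iHECs and in 0, 0 and 2 iHPCs. Transcript levels do not give the amount of protein, which for Myc and Mycn is known to be short-lived.

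The activators outweighed Mxd1, Mxd3 and Mxd4 in most cells. The summed TPM of Myc and Mycn was above that of Mxd1, Mxd3 and Mxd4 in 58 of 65 iHECs, against 21 of 21, 17 of 18 and 47 of 56 cells of the iHPC groups. The median log2 ratio of the 2 sums, each with 1 TPM added, was 5.49 in iHECs and 6.54, 4.74 and 3.12 in iHPCs, so it was lowest at day 21. None of Mxd1, Mxd3 and Mxd4 was detected in 33 iHECs and in 7, 4 and 18 iHPCs. Mxi1, a repressor gene of the same kind, was not in these sums or counts. Its mean level was 3.21 in iHECs and 2.41, 2.06 and 1.26 in the iHPC groups. In 6 iHECs Max and Mxd1 were found together, against 10.4 by the product of their shares, and at day 21 it was 12 cells against 13.2.

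Promoters of the members other than Myc were searched for the E-box. The motif CACGTG, which reads the same on both strands, was looked for in RefSeq windows (GRCm38.p6) of 250 bases before to 50 bases after a start, and it was present in 7.15% of the 32851 windows. Of these 5 members, Max and Mxd4 held it and Mycn, Mxd1 and Mxd3 did not. Both stretches of 30 bases are printed with the motif in capitals because they place the letters that Max dimers recognize beside genes of the network itself. That of Max is at chr12:76962234-76962263, minus strand, with the motif spanning the start. That of Mxd4 is at chr5:34187912-34187941, minus strand, with the motif beginning 219 bases before the start.
Max: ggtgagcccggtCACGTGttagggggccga
Mxd4: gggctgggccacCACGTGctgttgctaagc
The 2 genes had relative differences of opposite sign from iHECs to day 14, 1.77 for Max and -1.59 for Mxd4. A match is a description of these letters and not of binding.

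The other genes of the wider network were compared with the members. Mycl, a further Myc gene, had no value above 1 TPM among the 65 iHECs (0 cells, which by the count of 3 cells of 65 allows 4.62% of cells with such a value) and was detected in 6 of 21, 6 of 18 and 8 of 56 iHPCs. Mxi1, a further Mxd-type repressor, was detected in 40 of 65 iHECs, 18 of 21, 12 of 18 and 20 of 56 iHPCs, and it was lower at day 14 with a relative value of -1.72. Mga, a large Max partner with a repressor role, was also lower (-1.63). The means of Mxi1 and Mga differed by -0.80 and -0.70 before the median was subtracted. Mlx, the partner that takes the place of Max in a parallel network, was detected in 32 of 65 iHECs, 20 of 21, 16 of 18 and 52 of 56 iHPCs. It was higher at day 14 (1.66), as Max was, and higher again at day 21 (1.43), where Max was lower (-1.31). Of the 7 genes of this list 4 passed the filter, and 1 was higher and 2 lower at day 14.

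Genes known as Myc targets were read from a list of 39, of which 38 passed the filter. From iHECs to day-14 iHPCs 25 of the 38 were higher (65.8%, against 27.3% of all genes) and 0 lower, with a median relative difference of 1.92. The nucleolar and ribosome-assembly genes accounted for 15 of 19, the nucleotide, polyamine and other metabolic genes for 7 of 11, and the cell cycle and translation genes for 3 of 8. Bop1, which acts in large ribosomal subunit assembly, went from 1.92 to 7.83 on the log2(TPM + 1) scale, a relative difference of 4.98. Pa2g4, a growth-related nucleolar protein, had a relative difference of 3.32. Ctps and Gart, enzymes of pyrimidine and purine synthesis, had 4.05 and 3.73, and Rcc1, the Ran exchange factor, had 5.13. Not all listed genes followed: Nop56 (-0.10) and Nop16 (-0.09) were already at means of 8.43 and 7.39 in iHECs, and Ldha was at 11.63 in both groups.

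The genes that Myc is known to repress went the other way. All 4 that passed the filter were lower, against 24.4% of all genes, with a median of -2.57. Of these, the means of Gadd45a and Ndrg1 differed by -0.94 and -0.46 before the median of all genes was subtracted. Cdkn1a and Cdkn1b encode the cell cycle inhibitors p21 and p27. Cdkn1a went from 9.60 to 7.25, a relative difference of -3.28, and Cdkn1b from 4.32 to 1.26, a relative difference of -3.98. Proliferation markers were higher in 8 of 9, with Birc5 at 6.47 and Ccnb1 at 5.44 relative to the median. Targets and proliferation markers therefore moved together with the sort, the marker genes of blood and the number of detected genes, and their part in these counts was not tested.

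Partners of the network were counted against the same shares of 27.3% upward and 24.4% downward. Of 7 Myc cofactors, Wdr5 (2.15), Zbtb17, which encodes Miz-1 (2.09), Ruvbl1 (1.49) and Ruvbl2 (1.29) were higher and Trrap (-1.54) lower. Of 8 genes of Myc protein turnover 2 were higher and 2 lower, which is near the shares of all genes. Aurka, whose kinase is known to stabilize N-Myc protein, had 4.52 and is itself a cell cycle gene, and Gsk3b, whose kinase marks Myc for degradation, had -3.88. Among the 5 corepressor genes recruited by Mxd proteins, Ncor1 (-1.71) and Sin3b (-1.39) were lower and none was higher. Before the median was subtracted, the means of Trrap, Ncor1 and Sin3b differed by -0.61, -0.78 and -0.46.

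From day 14 to day 17 the targets changed little as a list. Of the 38, 1 was higher (2.63%, against 9.03% of all genes) and 3 lower (7.89%, against 7.09%), with a median of -0.17. The 3 were Nop16 (-1.04), Srm (-1.04) and Npm1 (-1.03), all near the limit, and E2f1 was higher (1.201). Among proliferation markers Ccnb1 (-1.22), Plk1 (-1.19) and Birc5 (-1.04) were lower, 3 of 9 against 7.09% of all genes, and none was higher.

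From day 17 to day 21, 9 of the 38 targets were lower (23.7%, against 13.1% of all genes) and 1 was higher, with a median of -0.36. The lowest were Polr1b (-1.66), a subunit of RNA polymerase I, Gart (-1.54), Mybbp1a (-1.53) and Ctps (-1.40). Nme1 was the one that was higher (1.01). Of the 4 Myc-repressed genes Ndrg1 was higher (1.45), and of the 9 proliferation markers Mki67 was higher (1.11), against 10.3% of all genes, with none lower in either list. A single gene of so short a list is near that share. In this step Mycn and Max were lower and Myc stayed within the limit.

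**Figure D4:**
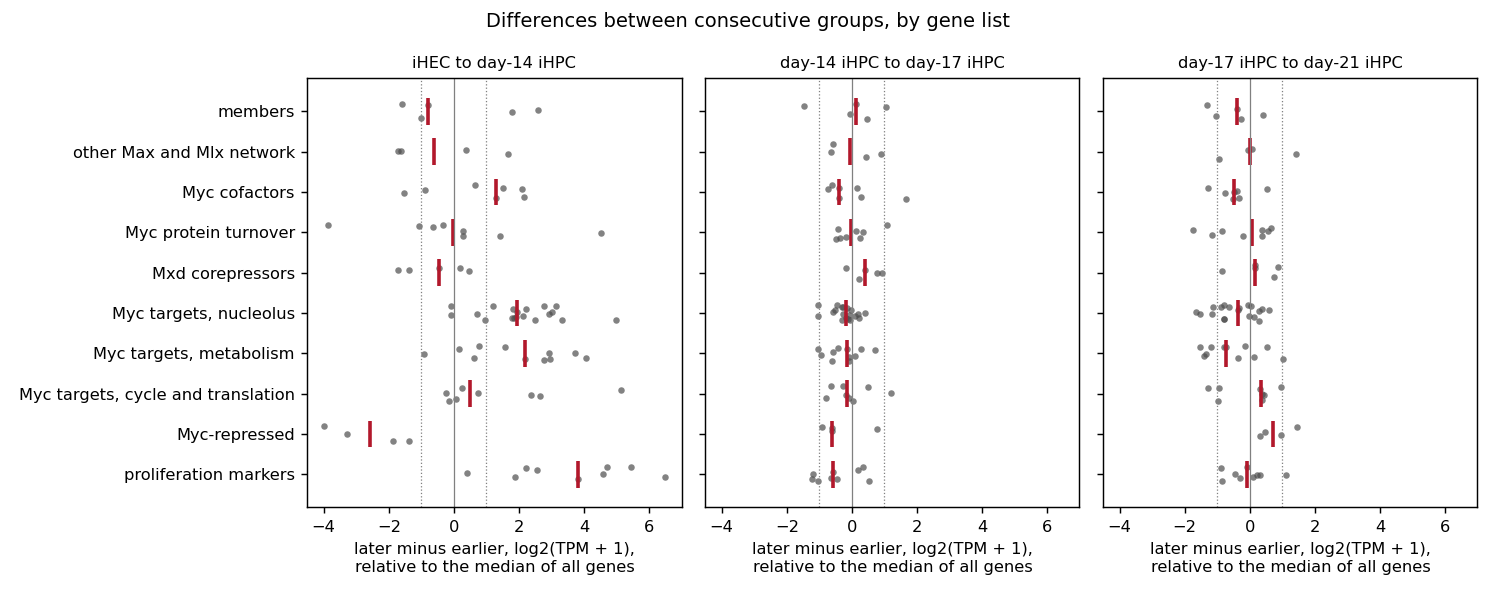
Difference between consecutive groups (later minus earlier mean of log2(TPM + 1), relative to the median of all genes) for each gene that passed the filter (points), by gene list, with the list median (red bar), and dotted lines at the limits of 2-fold. In the left panel the lists of Myc targets and the proliferation markers lie mostly to the right and the Myc-repressed genes to the left, and in the other 2 panels the medians stay within the limits.

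Within day-21 iHPCs, the cells in which a member was detected were set beside the rest, as a description. The mean level of the 9 proliferation markers was 6.81 ± 1.25 (SD between cells) in the 20 cells with Mxd3 and 4.18 ± 2.19 in the 36 others. For Mxd1 the order was the reverse, 3.69 ± 2.78 in the 18 cells with it and 5.79 ± 1.66 in the 38 others. This order of Mxd1 was not seen at the earlier days, with 6.39 ± 0.77 in 11 cells with Mxd1 and 5.25 ± 1.67 in 7 without it at day 17, and 6.19 ± 0.89 in 13 and 6.03 ± 0.85 in 8 at day 14. At day 17 Mxd3 gave 6.39 ± 0.53 in 5 cells and 5.78 ± 1.47 in 13. At day 21 Mxd4 gave 4.47 ± 2.72 in 18 cells and 5.43 ± 2.01 in 38. The cells with Mxd3 thus lay at the upper end of the marker level and those with Mxd1 were spread over its whole range, while Max gave 5.33 ± 2.23 and 4.55 ± 2.39. Cells with Mxd3 had more detected genes (median 7126.5 against 6424), and those with and without Mxd1 had 6665.5 and 6843.5. Mxd1 and Mxd3 shared 5 cells, against 6.43 by the product of their shares.

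**Figure D5:**
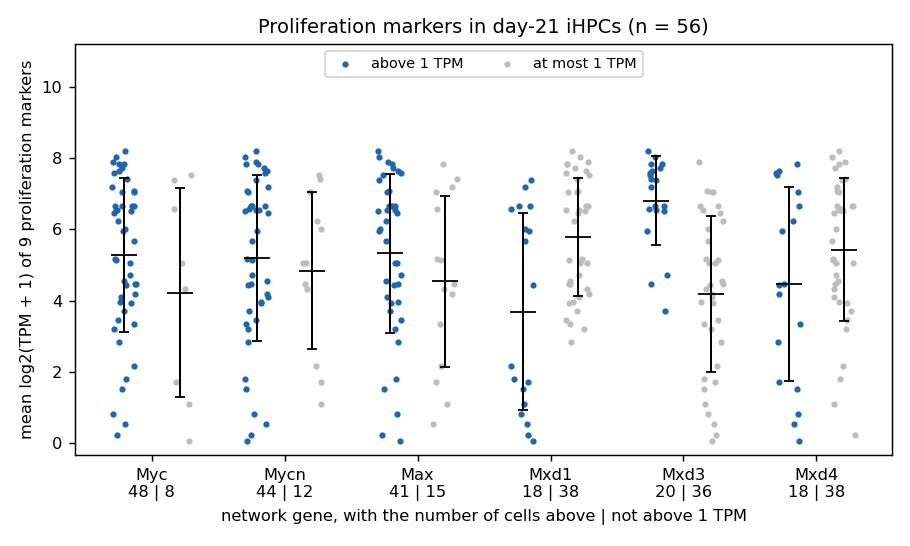
Mean log2(TPM + 1) of 9 proliferation markers in each of the 56 day-21 iHPCs, split for each network gene into cells above 1 TPM (blue) and not above it (gray), with the mean and SD between cells and the number of cells of each kind under each gene. The 20 cells with Mxd3 have a mean of 6.81 and the other 36 one of 4.18, whereas the 18 cells with Mxd1 have a mean of 3.69 and the other 38 one of 5.79.

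Targets of Myc were likewise set beside Myc itself. The mean level of the nucleolar targets was 6.74 ± 0.83 in the 48 day-21 iHPCs with Myc and 5.07 ± 0.92 in the 8 without it, and the metabolic targets had 6.83 ± 0.78 and 5.31 ± 0.67. For Mycn the nucleolar values were 6.66 ± 0.97 in 44 cells and 5.91 ± 1.04 in 12. The cells without Myc also had fewer detected genes (median 5716 against 6881.5), as did those without Mycn (5000.5 against 6975.5), and the nucleolar list itself correlated with the number of detected genes at 0.66 across the 56 cells. The link of Myc with the nucleolar list was weaker in the other groups. Its correlation was 0.58 at day 21, 0.18 in iHECs, 0.19 at day 14 and 0.08 at day 17. Mycn correlated with the same list at 0.46 at day 21, 0.35 in iHECs, 0.66 at day 14 and 0.31 at day 17. These values were below that of Myc at day 21 and above it in the other groups. In iHECs, cells with and without Myc differed in this list by less than the SD of either kind. With the cell cycle and translation targets at day 21, Myc correlated at 0.47 and Mycn at 0.64.

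The genes whose levels followed each member most closely were ranked by Pearson correlation over the 160 cells after the group means were subtracted. For Mxd3 these were Ska1 (0.49), Espl1 (0.48) and Esco2 (0.43), which act in chromosome attachment, separation and cohesion at mitosis. For Myc they were Dnajc2 (0.40), Ywhaq (0.39) and Gnl3 (0.38), of which Gnl3, which encodes nucleostemin, is also in the list of targets. For Mycn they were E2f6 (0.45), Cat (0.41) and Rcor2 (0.40), and for Max Git2 (0.38), Ppp1r12a (0.36) and Ppp3cc (0.35). Mxd1 had Pla2g15 (0.39) and Fam172a (0.37), and Mxd4 had Ndrg1 (0.33), Fam160b1 (0.33) and Inppl1 (0.31). These values are the highest among the 9674 genes and are a description only. Within single groups the value of the first-named gene of each member varied. In iHECs and at days 14, 17 and 21, Dnajc2 had 0.48, 0.0009, -0.12 and 0.42 and E2f6 0.32, 0.26, -0.06 and 0.73. Git2 had 0.38, -0.10, 0.60 and 0.43, and Ska1 0.29, 0.17, 0.31 and 0.61. Pla2g15 had 0.45, 0.47, 0.60 and 0.25, and Ndrg1 0.42, 0.37, 0.25 and 0.22.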

How the data were processed

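Single sorted cells were profiled by RNA sequencing after amplification of poly(A) cDNA. According to the labels and methods, the authors aligned reads to mm10 with HISAT2 2.1.0 and estimated TPM with StringTie 1.3.4. The annotation is not given in the sources used here. The deposited TPM values, 160 cells in 1 table with 0 columns unused, are scaled to a fixed total in each cell (988686 to 999108), keep no read depth, and were used with a pseudocount of 1. TPM were not tested as counts.

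Means, SDs, shares above 1 TPM, differences between consecutive groups and correlations were computed with Python 3.11.15, numpy 2.4.6, pandas 2.3.3 and scipy 1.17.1. Scripts were tested on simulated data. No cell was left out and no test was run, since a group is 1 sample. Positions are from GENCODE, promoters from RefSeq. Mycl was matched to its row through a RefSeq synonym.

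The 6 genes, the lists and the rules were chosen with earlier results of these data known. Named genes were the 6 members, up to 2 genes per list and direction in each comparison with the largest differences, and the 3 genes most correlated with each member, of which 1 is not reported here. Genes named beyond these, such as Ruvbl1, Npm1, Plk1 and Tbp, were chosen after their values were seen.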

Additional observations from a re-analysis of the deposited data

How the results depend on the processing

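Under the alternative settings no called difference changed direction. Of the recomputed values, 161 of 192 for main results and 263 of 288 for single genes and the median of all genes stayed the same. A level, a difference or a Mycn share was the same within the spread between cells, and a share of cells within its interval. A count was the same within 1.5 times of it, and a median difference of all genes if its sign held. The main results that moved follow, with the day-17 step for the change from day 14 and the day-21 step for the change from day 17. With a pseudocount of 0.1, the Myc targets had 3 lower genes from iHECs to day 14 and 4 higher in the day-21 step. The Myc-repressed genes then had 1 higher and 1 lower in the day-17 step and 2 higher in the day-21 step, and the proliferation markers 1 lower in the same step. With a pseudocount of 10, the Myc-repressed genes had 2 lower at day 14, the targets 0 higher and 0 lower and the proliferation markers 1 lower in the day-17 step, and all 3 lists 0 higher in the day-21 step. With median-of-ratios size factors the targets had 0 lower in the day-17 step and 0 higher in the day-21 step. Without the filter on low values, the targets had 0 lower and the proliferation markers 1 lower in the day-17 step, and in the day-21 step the targets had 0 higher and 18 lower and the proliferation markers 0 higher and 2 lower. Without the 42 cells that had the fewest genes for their group, the targets and the Myc-repressed genes had 1 lower each in the day-17 step, and in the day-21 step the targets had 0 higher and the proliferation markers 2 lower. The share of iHECs with both Myc and Mycn was 80% above 0 TPM and 49.2% above 10 TPM, and that of day-17 iHPCs was 100% above 0 TPM and 100% without those 42 cells. Of the 18 genes most like the members, 6 were kept with Spearman's rho and 4 when group means were not subtracted. The cause of these changes was not tested.

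Calls of members near the limit moved too. From iHECs to day 14, Mycn ranged from -1.93 with a pseudocount of 0.1 to -0.28 with 10, and the values of the other member calls that ended stand in the comparisons. Among single genes, the mean levels of the Mxd genes moved with the pseudocount. Above 10 TPM, Myc was in 58.5% and Mycn in 76.9% of iHECs, Max in 53.6% of day-21 iHPCs, Mxd1 in 23.8% of day-14 and 14.3% of day-21 iHPCs and Mxd4 in 0% of day-14 iHPCs. Above 0 TPM, Mxd1 was in 52.3% of iHECs, and Myc and Max were in 100% of day-17 iHPCs, as they were without those 42 cells. The setting without the 8 cells of unusual blood cell markers was chosen after seeing the data. No paired analysis was possible because the numbers in the labels only count cells. Depth is unknown, and a single sample per group leaves every difference without a replicate check.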

Other observations

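Gata2, a transcription factor of blood stem and progenitor cells, split the day-21 iHPCs into 34 cells above 1 TPM and 22 at or below it. Its day-21 median was 2.53 TPM and its highest value 1739 TPM, so the 34 cells include cells near the threshold. The split need not match the day-21 subpopulation of relatively abundant Gata2 that the paper describes. Myc was detected in 28 of the 34 and 20 of the 22, with means of 5.51 ± 2.89 and 6.29 ± 2.29 (SD between cells). Mycn was detected in 28 of 34 (82.4%, interval 65.5 to 93.2%) and 16 of 22 (72.7%, interval 49.8 to 89.3%). Both were in 25 of 34 and 16 of 22 cells, and Mxd3 in 11 of 34 and 9 of 22. The intervals of the cells with and without Gata2 overlapped for all 6 genes.

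Of the 9674 genes compared, 7249 had a promoter window, and 896 of these held the E-box CACGTG. From iHECs to day 14, 31.4% of the genes with the motif were higher, against 27.9% of all genes with a window, and 23.1% lower, against 23.9%. From day 14 to day 17, 7.59% of them were higher, against 9.05%, and 6.58% lower, against 6.97%. From day 17 to day 21, 15.7% of them were lower, against 13.7%, and 8.37% higher, against 10.001%. Of 33 listed Myc targets with a window, 9 held the motif (27.3%).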
